A study of Mus musculus with 8 samples.

Results

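miR-122 is the microRNA (miRNA) most closely tied to the liver, and its 2 mature arms, mmu-miR-122-5p and mmu-miR-122-3p, were followed here in exosomes of mouse amniotic fluid. The members were taken by name, as every array probe annotated to either arm. That gave 2 of the 1881 mouse miRNAs on the array, read by 4 of its 4415 probes. The single gene, Mir122, lies on chromosome 18 in the RefSeq gene table (GRCm38.p6). Exosomes, vesicles that cells shed into their surroundings, were isolated by size exclusion, and each of 8 samples was read on its own single-colour Agilent miRNA array. The 4 LPS samples come from premature births about 48 h after the mother, 14 days pregnant, was given lipopolysaccharide intraperitoneally at 100 μg per kg. Lipopolysaccharide (LPS) is a bacterial cell wall component that sets off inflammation. The 4 cesarean samples come from cesarean sections, whose mothers' treatment, if any, the labels leave out. All 8 samples carry the label day 17 of pregnancy, which does not match the timing given for LPS, so whether both groups had the same gestational age is not settled. The labels name no strain, maternal age or allele, and they do not say whether replicates are separate animals or pools, so p-values below speak only of the spread between these samples, which may be technical. No replicates are paired in the labels, and replicate numbers only name the arrays.

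Hepatocytes make miR-122 in very large amounts, from fetal life on, and the miRNA is known for its part in lipid and cholesterol metabolism and in keeping the hepatocyte differentiated. Of the duplex cut from its hairpin, the 5p arm is the strand that is kept and loaded onto Argonaute, while most of the 3p arm is lost. Damaged liver releases miR-122 into blood, where it is used as a sign of liver injury. In a fluid, a lower signal can mean fewer vesicles from a source or fewer copies per vesicle, and these cannot be told apart.

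The sequences of 5 miRNAs that come up beside miR-122-5p are given here from RefSeq (GRCm38.p6), 5′ to 3′, with the seed (bases 2 to 8) in capitals. The first 4 belong to the liver-enriched list described further on, and miR-133b-3p is the striated muscle miRNA among the 10 closest profiles for which a sequence is shown. miR-192-5p and miR-215-5p share the seed UGACCUA, and the others each have a seed of their own.
miR-148a-3p: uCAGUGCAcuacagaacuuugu
miR-192-5p: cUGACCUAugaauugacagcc
miR-215-5p: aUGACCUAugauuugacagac
miR-194-5p: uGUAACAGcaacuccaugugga
miR-133b-3p: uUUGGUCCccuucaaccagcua
Mature miR-148a-3p lies on the minus strand at chr6:51269829-51269850, and miR-192-5p on the plus strand at chr19:6264857-6264877. miR-215-5p is at chr1:185313610-185313630 and miR-133b-3p at chr1:20682834-20682855, both on the plus strand. miR-194-5p is made from genes on chromosomes 1 and 19 (Mir194-1 and Mir194-2), which its probes do not tell apart.

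miR-122-5p was above background in all 4 LPS samples and in 2 of the 4 cesarean samples, and its amount differed greatly between samples of the same group. By its brighter probe, the mean signal before scaling was 252, 30.2, 1301 and 35.6 on LPS arrays 1 to 4, against 5.27, 162, 6.59 and 25.2 on cesarean arrays 1 to 4. On cesarean arrays 1 and 3 no kept spot of this probe was well above background by the scanner software, so the values there are background readings. LPS arrays 3 and 1 were the brightest and cesarean array 2 came next, so the groups overlapped.

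**Figure D1:**
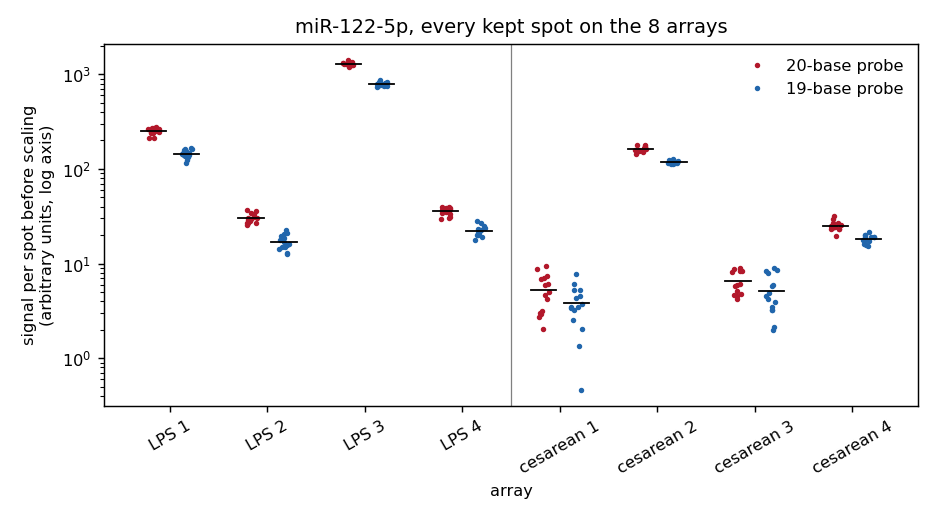
Signal before scaling (arbitrary units, log axis) of every kept spot of miR-122-5p on each array, for the 20-base and the 19-base probe, with black bars at the mean. LPS arrays 3 and 1 and cesarean array 2 stand above the rest, and cesarean arrays 1 and 3 lie at background.

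The levels used in all further comparisons are log2 signals scaled to the 75th percentile of each array and held at a floor of 3.75. The floor is the median, over the arrays, of the lowest probe signal called well above background on each. A level above the floor is therefore not always above background. On this log2 scale miR-122-5p stood at 8.27, 5.04, 9.81 and 5.56 on LPS arrays 1 to 4, against 3.75, 7.02, 3.75 and 4.97 on cesarean arrays 1 to 4. The order was LPS 3, LPS 1, cesarean 2, LPS 4, LPS 2 and cesarean 4, with cesarean 1 and 3 at the floor. LPS 2 and cesarean 4 were closer to each other than the SD between spots of one array, and the 2 floor values have no order. Every other pair of neighbours was further apart than that SD. The order of the 6 measured arrays was the same without scaling between arrays, and in the authors' deposited value table LPS 2 (4.31) and cesarean 4 (4.65) changed places.

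The error of measurement within an array was small beside these differences. The brighter probe, of 20 bases, had 15 spots per array, of which 14 or 15 were kept. Where it was well above background, the coefficient of variation over its spots was lowest on LPS array 3, at 3.62%, and highest on cesarean array 4, and the SD over spots ran from 0.05 to 0.17 on the log2 scale. The SD over the 4 LPS arrays was 13.1 times the largest of these spot SDs. The other probe, which is 19 bases long, was also well above background on the same 6 arrays and read 0.45 to 0.82 lower on the log2 scale. It gave the same order except that LPS 2 (4.22) read below cesarean 4 (4.50). Probes of one miRNA read the same RNA, so this says nothing of differences between samples.

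The log2 of the 75th percentile signal lay between 7.72 and 8.67 on LPS arrays and between 7.74 and 8.81 on cesarean arrays. LPS array 3 and cesarean array 2, the highest of their groups in miR-122-5p, were among the brighter ones at 8.67 and 8.45. LPS array 1, with the second highest level, was among the dimmer ones at 7.83, and cesarean array 1, where miR-122-5p was at background, was the brightest of all at 8.81. The part of brightness in the level of miR-122-5p was not tested. Spike-in probes lay between 10.84 and 11.06 on the log2 scale on all 8 arrays. The 8 arrays shared 1 slide, on which each group filled a row of its own, so row and group cannot be told apart. Each column of the slide held 1 array of each group.

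The question the design asks is whether exosomes of LPS-induced premature birth carry other amounts of miRNAs than those of cesarean section. LPS is labelled only for the premature births, so treatment and way of delivery cannot be told apart. miR-122-5p averaged 7.17 ± 2.26 on LPS arrays and 4.87 ± 1.54 on cesarean arrays (log2 level, SD, n = 4 each), a difference of 2.30 ± 1.07 (SE) that did not pass the test (limma adjusted p = 0.211, unadjusted p = 0.0567). The difference amounts to 4.92-fold, with a 95% interval from 0.947-fold to 25.6-fold. The LPS array was the higher one in 14 of the 16 pairs of an LPS and a cesarean array. These include LPS 2 and cesarean 4, which differed by less than the SD between spots. That pair was reversed by the other probe and in the authors' deposited value table. A two-sided exact permutation test over the 70 allocations of arrays gave p = 0.171, where the smallest p this design allows is 0.0286. With the slide column as a block the limma adjusted p was 0.313. Of the 470 miRNAs tested, 4.89% passed the adjusted threshold of 0.05, and the arrays of both groups did not overlap for 17.0%. Without LPS array 3 the difference was 1.42 (limma adjusted p = 0.441), without LPS array 2 it was 3.01, and without cesarean array 2 it was also 3.01 (limma adjusted p = 0.147 and 0.125). The 2 cesarean arrays at the floor enter the fit as if measured, so the difference and its SE depend on the floor, at 2.71 with a floor 2 times as low and 1.80 with a floor 2 times as high. Too few cesarean arrays were above background to include miR-122-5p in the test, so it was included through its LPS arrays alone.

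**Figure D2:**
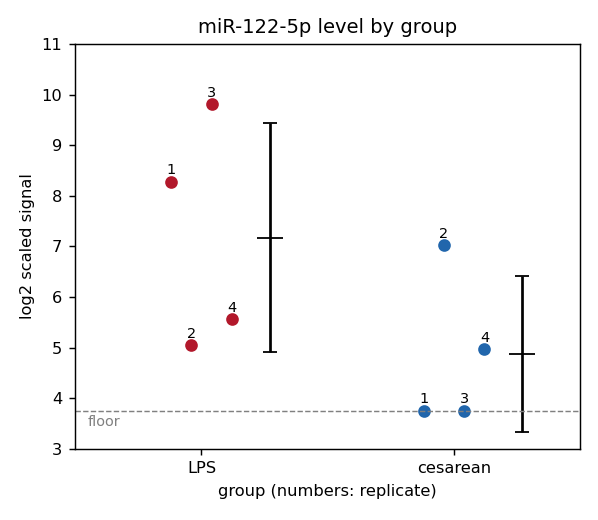
Log2 scaled signal of miR-122-5p in each LPS and cesarean sample, numbered by replicate, with the mean and SD of each group beside the points and the floor as a dashed line. The groups overlap, and cesarean samples 1 and 3 lie at the floor of 3.75.

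By size, the difference of miR-122-5p was the second largest of all 470 miRNAs tested, but its SE was the largest, against a median SE of 0.30, and 125 miRNAs had a smaller p. The median log2 difference over all 470 was -0.06, and 45.5% of them were higher on LPS arrays. With p unadjusted, 25.1% of the 470 fell under 0.05.

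The spread of miR-122-5p within each group was among the widest on the array. Its SD of 2.26 over LPS arrays ranked second of 470, after miR-3472 at 2.44 and ahead of miR-467f at 2.23, both named after their values were seen. Over cesarean arrays its SD of 1.54, with 2 arrays at the floor, also ranked second, after the neural miR-9-3p at 1.63. Over all tested miRNAs the median SD came to 0.45 among LPS and 0.35 among cesarean samples. Among LPS samples the highest level was 27.2-fold above the lowest. Among cesarean samples the highest was 9.63-fold above the floor, and over all 8 arrays the highest was 66.5-fold above it. The lowest samples were held at the floor, so against them these folds are lower bounds.

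**Figure D3:**
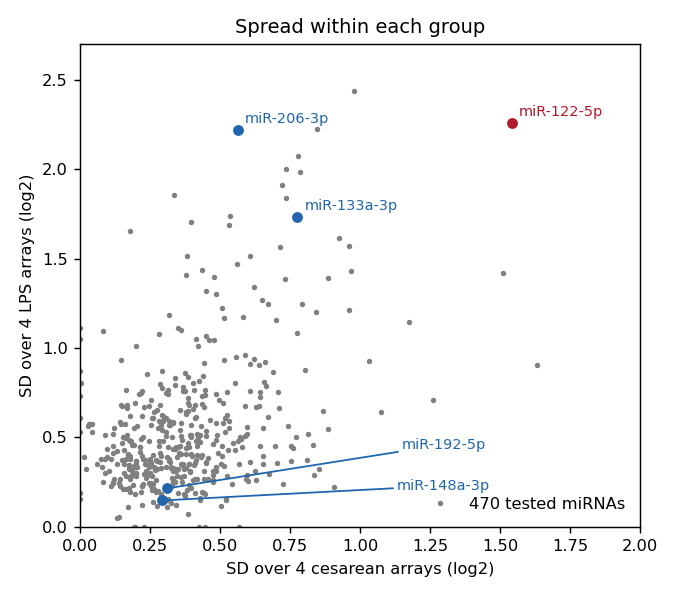
SD of the log2 level over the 4 LPS arrays (vertical) against the SD over the 4 cesarean arrays (horizontal) for the 470 tested miRNAs. miR-122-5p lies at 2.26 and 1.54, far from the bulk, while the liver-enriched miR-192-5p and miR-148a-3p lie within it and the striated muscle miR-133a-3p and miR-206-3p have a wide spread over LPS arrays.

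The 3p arm, the strand that is mostly lost, was not measured above background in any sample. Of its 232 kept spots, over a pair of probes of 17 and 18 bases on 8 arrays, 0 were well above background. Mean probe signals before scaling lay between -1.60 and 2.72, and the brightest single spot read 6.37. The highest mean, 2.72 by the 18-base probe, was on LPS array 3, the array with the most miR-122-5p, and it too was not above background. In the authors' deposited value table miR-122-3p lay between 2.04 and 2.14 on LPS arrays and between 2.06 and 2.08 on cesarean arrays (log2). It therefore entered no test, and signals of different probes do not give the ratio of the arms.

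Other miRNAs that liver makes in quantity went separate ways. The liver-enriched list held 15 names, all on the array, of which 12 were tested, miR-122-5p among them. The tested members had a median log2 difference of 0.30, or 0.24 without miR-122-5p, against -0.06 over all tested miRNAs. Of the 12, 2 passed the test as higher on LPS arrays and 0 as lower, where 2.55% of all tested miRNAs passed as higher and 2.34% as lower. miR-122-3p, miR-101b-3p and miR-802-5p were above background on 0 of the 8 arrays.

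miR-194-5p and miR-192-5p, which are abundant in kidney and gut as well as liver, were the members that passed. miR-192-5p comes from a single gene on chromosome 19, and miR-194-5p from genes on chromosomes 1 and 19. miR-194-5p stood at 6.09, 6.74, 6.96 and 6.16 on LPS arrays 1 to 4, against 4.44, 4.05, 3.75 and 4.97 on cesarean arrays 1 to 4 (log2 level). Its groups did not overlap, and the difference was 2.18 ± 0.32 (SE, limma adjusted p = 0.0108), close in size to that of miR-122-5p with a far smaller SE. miR-192-5p stood at 7.58, 7.49, 7.98 and 7.61 on LPS arrays, against 6.40, 6.12, 6.48 and 6.87 on cesarean arrays, with no overlap and a difference of 1.20 ± 0.24 (SE, limma adjusted p = 0.0268). Neither passed without scaling between arrays (limma adjusted p = 0.138 for miR-194-5p and 0.373 for miR-192-5p) or with the slide column as a block (0.0714 and 0.124), and over all alternatives miR-194-5p passed in 16 of 20 and miR-192-5p in 11 of 21. miR-192-5p also missed the threshold without LPS array 2 or 3 or without cesarean array 1, 2 or 3 (adjusted p from 0.0566 to 0.0812). LPS arrays 1 and 3, which stood far above LPS arrays 2 and 4 in miR-122-5p, did not stand apart in either miRNA. With each group's mean taken away, the correlation with miR-122-5p over the 8 arrays was 0.14 for miR-194-5p and 0.18 for miR-192-5p.

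miR-215-5p, the seed relative of miR-192-5p, was above background on 3 LPS arrays but on 0 of the cesarean ones. It stood at 5.41 and 5.11 on LPS arrays 1 and 3 and at 4.29 and 4.16 on LPS arrays 2 and 4, with all cesarean arrays held at the floor of 3.75 (log2 level). The difference of 0.99 ± 0.30 (SE) did not pass the test (limma adjusted p = 0.0771) and its size depends on the processing, from 0.25 with a floor 2 times as high to 4.29 with the scanner software's total signal. It passed in 3 of 20 alternatives, which were the authors' deposited value table (adjusted p = 0.0332), a floor 2 times as low (0.00961) and the scanner software's total signal (0.013). Here the pair of arrays with the most miR-122-5p was the higher one.

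The remaining 8 tested members ranged in difference from -0.49 for miR-483-5p to 0.39 for miR-101a-3p, and none passed the test (limma adjusted p from 0.344 to 0.976). miR-148a-3p, one of the most abundant hepatocyte miRNAs after miR-122, differed by 0.36 ± 0.23 (SE, limma adjusted p = 0.344). miR-22-3p and miR-378a-3p, both with known parts in liver metabolism, differed by 0.24 and -0.09. miR-483-3p and miR-483-5p, which lie within the fetal growth gene Igf2 and are made by fetal liver, differed by -0.27 and -0.49. Of the 2, miR-483-5p had a profile opposite to that of miR-122-5p over the 8 arrays (Pearson r = -0.73, Spearman rho = -0.90).

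**Figure D4:**
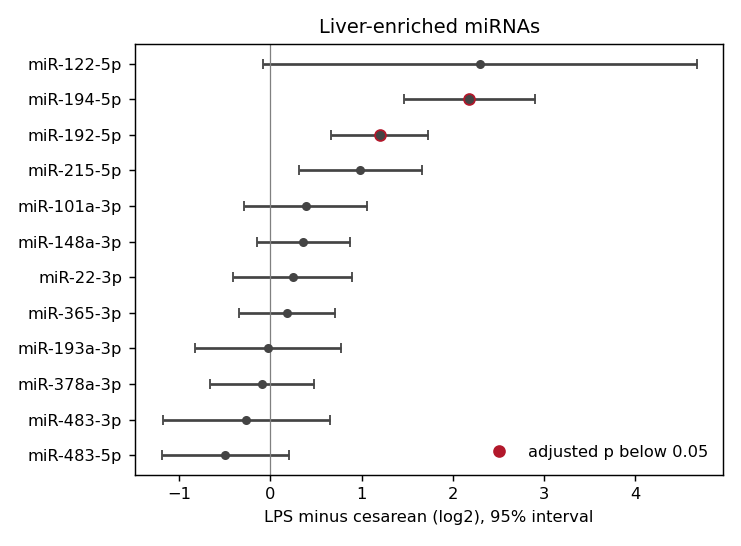
LPS minus cesarean difference (log2) with its 95% interval for the 12 tested liver-enriched miRNAs, with those that passed an adjusted p of 0.05 in red. miR-194-5p and miR-192-5p passed, and miR-122-5p has the largest difference and by far the widest interval.

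The miRNA whose profile was most like that of miR-122-5p over the 8 arrays was the striated muscle miR-133a-3p. The 10 closest held 3 of the 4 tested striated muscle miRNAs and 4 miRNAs of an imprinted cluster. Likeness was measured as Pearson's r of log2 levels against each of the other 469 tested miRNAs, and it is a description of 8 samples that share a slide, with no test. The 10 closest were miR-133a-3p, miR-329-3p, miR-136-3p, miR-16-5p, miR-543-3p, miR-133b-3p, miR-1a-3p, miR-532-5p, miR-148a-3p and miR-410-3p, with r between 0.81 and 0.86. The median r over all 469 was -0.13. Of the 10, miR-133a-3p, miR-133b-3p and miR-1a-3p are made in skeletal and heart muscle, where they govern growth and differentiation. A further 4 (miR-329-3p, miR-136-3p, miR-543-3p and miR-410-3p) come from single genes on chromosome 12, in the imprinted Dlk1-Dio3 region. How many of the tested miRNAs come from that region was not counted, so these 4 cannot be set against its share. Of them, miR-136-3p was above background on only 5 of the 8 arrays. miR-16-5p is a widely expressed inhibitor of the cell cycle, and miR-148a-3p was the one member of the liver-enriched list among the 10.

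The place of the muscle miRNAs among the closest depends on the source of the values. In the authors' deposited value table miR-148a-3p, miR-543-3p, miR-329-3p and miR-16-5p were still among the 10 closest, while miR-133a-3p ranked 15 (r = 0.84), miR-1a-3p ranked 27 (r = 0.81) and miR-133b-3p ranked 41 (r = 0.76).

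miR-133a-3p, the closest of all with r = 0.86 (rho = 0.63), stood at 7.25, 4.74, 8.19 and 4.86 on LPS arrays 1 to 4, against 5.43, 7.15, 5.61 and 5.95 on cesarean arrays 1 to 4 (log2 level). LPS arrays 3 and 1 and cesarean array 2 were its 3 highest, as they were for miR-122-5p, and unlike miR-122-5p it was lowest on LPS arrays 2 and 4. Its difference between the groups was 0.23 ± 0.75 (SE, limma adjusted p = 0.895).

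Once each group's mean was taken away, the likeness to muscle miRNAs was closer. The 5 highest were then miR-133a-3p (r = 0.98), miR-133b-3p (0.95), miR-532-5p (0.93), miR-1a-3p (0.92) and miR-375-3p (0.92), the last a miRNA of pancreatic islets and other endocrine cells. miR-133b-3p read 8.14, 5.66, 9.21 and 5.89 on LPS arrays, against 6.52, 7.76, 6.79 and 7.01 on cesarean arrays. miR-1a-3p read 7.65, 4.88, 7.75 and 5.12 on LPS arrays, against 5.81, 7.11, 5.80 and 5.52 on cesarean arrays. Both were thus high on LPS arrays 1 and 3 and, among the cesarean arrays, on array 2. miR-206-3p, a miRNA of skeletal muscle, shared the LPS part (8.45, 5.02, 9.54 and 5.47) but not the cesarean part (6.46, 6.15, 7.33 and 7.16), where array 2 was its lowest.

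**Figure D5:**
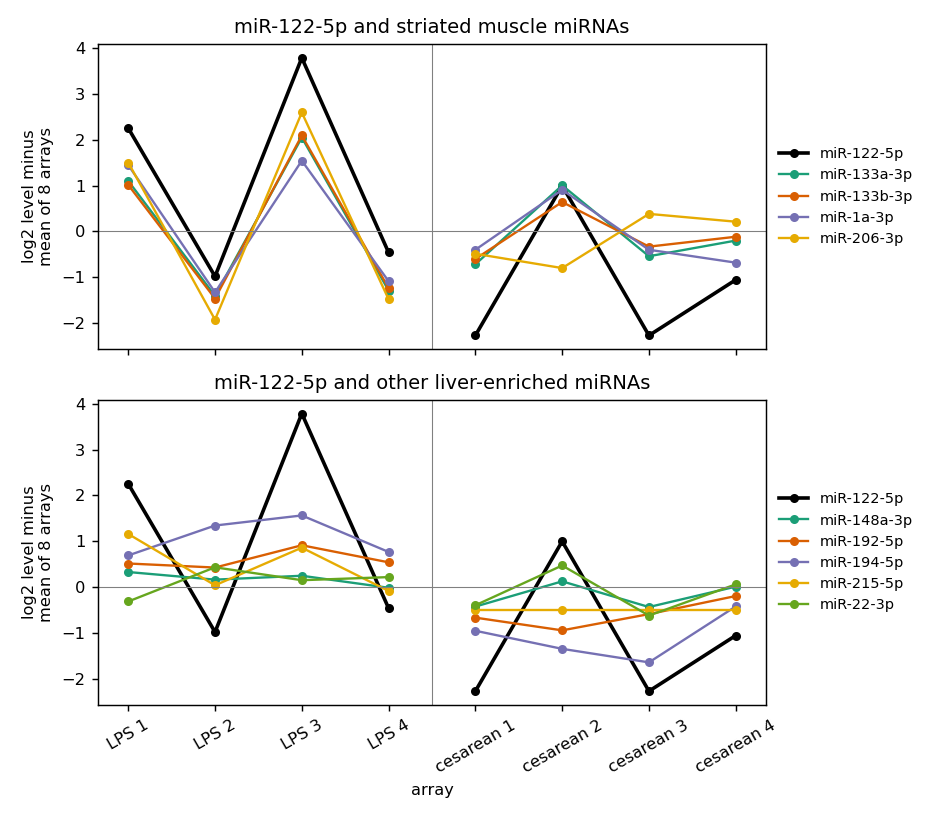
Log2 level on each array minus the mean of the 8 arrays, for miR-122-5p (black) with 4 striated muscle miRNAs (upper panel) and with 5 other liver-enriched miRNAs (lower panel). The muscle miRNAs share the peaks of miR-122-5p on LPS arrays 1 and 3, and 3 of the 4 share its peak on cesarean array 2, while miR-192-5p and miR-194-5p separate the groups instead.

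The likeness after taking away group means was not recomputed with any array left out. With group means kept, most of the 10 closest likenesses were weaker without LPS arrays 3 and 1. These are the 2 arrays farthest from the median of miR-122-5p. Over the other 6 arrays r was 0.53 for miR-133a-3p, 0.37 for miR-133b-3p, 0.47 for miR-1a-3p and 0.10 for miR-136-3p, and 1 of the 10 closest miRNAs stayed among the 10 closest. That one was miR-148a-3p, with r = 0.82 and rho = 0.85 over 8 arrays and r = 0.81 over 6. It read 7.56, 7.39, 7.47 and 7.21 on LPS arrays, against 6.80, 7.35, 6.79 and 7.24 on cesarean arrays, so its lowest levels fell on cesarean arrays 1 and 3, the same ones on which miR-122-5p was at background. Its whole range was 0.76, against at least 6.05 for miR-122-5p, whose lowest values are the floor (log2), or 0.11 per unit of miR-122-5p by a straight line, compared with 0.49 for miR-133a-3p. miR-22-3p, with r = 0.34 over all arrays, reached 0.86 over these 6. The other liver-enriched miRNAs differed widely over the same 6 arrays. miR-378a-3p, miR-365-3p, miR-101a-3p and miR-193a-3p had r = 0.79, 0.78, 0.63 and 0.49. miR-215-5p, miR-483-3p, miR-194-5p and miR-192-5p had 0.16, 0.15, 0.14 and 0.003, and miR-483-5p had -0.94.

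The profiles most opposed to miR-122-5p were those of miR-328-5p (r = -0.94, rho = -0.90), miR-7033-5p (r = -0.93, rho = -0.87) and miR-7216-5p (r = -0.92, rho = -0.90). Their swings were small, with a range over the 8 arrays of 0.82, 0.78 and 1.20 (log2). Without LPS arrays 1 and 3 their r was -0.81, -0.92 and -0.71. Below -0.8 there were 37 miRNAs, and above 0.8 there were 15.

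Marker miRNAs of other tissues moved with miR-122-5p to different degrees. For comparison, the mean log2 level of the other 11 tested liver-enriched miRNAs had r = 0.76 with miR-122-5p (rho = 0.75, and r = 0.58 without LPS arrays 1 and 3). The mean log2 level of the 4 tested striated muscle miRNAs, of 7 listed, ranged from 5.07 to 8.67 over LPS arrays and from 6.05 to 7.04 over cesarean arrays, and had r = 0.82 with miR-122-5p (rho = 0.63), but 0.25 without LPS arrays 1 and 3. The heart muscle miRNAs miR-208a-3p and miR-208b-3p were above background on 0 of the 8 arrays, and miR-499-5p on 1. Of the 3 tested erythroid miRNAs, of 5 listed, miR-144-3p was held at the floor on all cesarean arrays and entered the test through LPS arrays alone. The groups overlapped for miR-451a and for miR-486a-5p. The mean levels of the 3, with miR-144-3p included, ran from 8.78 to 9.38 on LPS arrays and from 7.92 to 8.60 on cesarean arrays (r = 0.75, rho = 0.83, and r = 0.40 without LPS arrays 1 and 3). The 3 tested leukocyte miRNAs, of 5 listed, lay between 6.92 and 7.52 on LPS arrays and between 6.62 and 7.03 on cesarean arrays (r = 0.69, rho = 0.54, and r = 0.32 without those arrays). The miR-200 family of epithelia, with all 5 tested, had mean levels from 7.60 to 8.28 on LPS arrays and from 6.54 to 7.09 on cesarean arrays (r = 0.69, rho = 0.73, and r = 0.39 without them). Mesenchymal and smooth muscle miRNAs (5 of 5 tested, r = 0.30, rho = 0.20) and neural ones (3 of 5 tested, r = -0.23, rho = -0.42) were less alike, at 0.34 and -0.20 without them. The 1 tested pancreatic and endocrine miRNA of 4 listed, miR-375-3p, had r = 0.78 (0.58 without them), and the 1 tested endothelial miRNA of 2 listed had r = 0.42 (0.54 without them). With each group's mean taken away, the mesenchymal miR-199a-3p, miR-199a-5p and miR-214-3p reached r = 0.87, 0.88 and 0.88, above miR-206-3p at 0.71. From the same list, miR-143-3p and miR-145a-5p had 0.31 and 0.51. Neural miR-128-3p, miR-218-5p and miR-9-3p had 0.76, 0.68 and -0.05. The part of any of these tissues in the level of miR-122-5p was not tested.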

How the data were processed

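Per the file headers, the deposited intensity values are spot signals from Agilent Feature Extraction 10.7.1.1, background-subtracted within each array and otherwise raw (the submitters' processing notes give version 9.1). The authors' deposited value table holds log2 values with column medians of 2.14 to 2.15. The sources used here do not give its normalization, nor how the RNA, called cRNA in the labels, was labelled. Each of its 8 columns correlated best with the array of the same sample (r from 0.958 to 0.964, 336 miRNAs).

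Control spots and spots marked as outliers or uneven (2.99% to 3.48% per array) were left out, and no miRNA spot was saturated. A probe was called well above background on an array when the scanner software said so for a share of 0.5 or more of its spots. Probe means were scaled between arrays on the 75th percentile of the 618 probes called on all arrays, held at a floor of 13.5 (log2 3.75) and put on the log2 scale. The brightest probe stood for each miRNA. The test covered the 470 miRNAs called on 3 or more arrays of 1 group and used limma 3.58.1 under R 4.3.3 (two-sided LPS minus cesarean contrast, Benjamini-Hochberg over all 470, threshold 0.05). The fit was tested on simulated data. Python 3.11.15, numpy 2.4.6, pandas 2.3.3 and matplotlib 3.10.9 handled tables and plots. The number of arrays limits the precision.

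Named are both arms, the 10 tested miRNAs with the highest and the 3 with the lowest Pearson r to miR-122-5p, the 5 highest after taking away group means, and the members of 9 tissue lists. Members and lists were chosen with earlier results of these data known. Alternative settings changed the scaling, background, source of values, probe summary, floor, filter and slide column, or left out 1 array.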

Additional observations from a re-analysis of the deposited data

Results flagged for a closer look

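Within groups of 4 arrays, 51 groups of 26 named miRNAs were checked for a sample far from the others by Dixon's ratio, and 2 exceeded it, where chance flags about 1 group in 20. miR-329-3p, among the 10 miRNAs closest in profile to miR-122-5p, read 6.07 on cesarean array 3, apart from the other cesarean arrays, the nearest of which was at 6.53 (log2). miR-136-3p, another of the 10, read 3.78 on cesarean array 4 while the other 3 cesarean arrays lay at the floor of 3.75, so its distance is that between the floor and a value just above it. miR-122-5p itself had no such sample in either group.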

How the results depend on the processing

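The difference of miR-122-5p was positive in all 21 alternative limma fits and passed the adjusted threshold in none of them, with differences from 1.42 to 3.01 and adjusted p from 0.125 to 0.451. miR-122-5p entered the test through its LPS arrays alone, and all these fits draw on the same samples. Its count of positive fits therefore does not speak for its direction. With p unadjusted, 7 of these fits fell under 0.05. Leaving out 1 array at a time gave 1.42 to 3.01, and normexp background correction, whose offset of 50 compresses dim signals, gave 1.48. With only miRNAs detected on all 8 arrays miR-122-5p has no value, and for miR-122-3p only the summary per miRNA was tried, since no setting of scale or floor changes the marks of the scanner software. By SD over LPS arrays miR-122-5p ranked 1st to 26th in 11 alternatives, and over cesarean arrays 1st to 17th, the lowest ranks being those of the scanner software's total signal per miRNA. Of the 10 closest profiles, between 1 and 9 stayed among the 10 closest over 20 alternatives, with a median of 5. miR-194-5p stayed positive in 20 of 20 alternatives (0.98 to 2.60) and passed in 16, miR-192-5p stayed positive in 21 of 21 (0.85 to 1.33) and passed in 11, and miR-215-5p stayed positive in 20 of 20 (0.25 to 4.29) and passed in 3. miR-215-5p entered the test through its LPS arrays alone, with all cesarean arrays held at the floor. Its difference in the main setting could thus not be negative, and its count of positive fits does not speak for its direction. Over all tested miRNAs, the count of 23 that passed was 1 without scaling, 1 when scaled to spike-in probes, 1 with the slide column as a block, 13 with the percentile over all probes, 36 with quantile normalization, 6 with the scanner software's total, 15 with only miRNAs detected on all arrays, 2 with no filter, 9 with normexp, and 3 to 79 with 1 array left out. Of those, 79 was without LPS replicate 1, and 4 and 7 without LPS replicates 2 and 3. Without cesarean replicates 1 to 4 the counts were 5, 4, 3 and 9. The causes were not tested. No paired analysis was possible because the sample titles share only 1 number between the groups and the replicate numbers used here only name samples in accession order. The slide columns, which hold 1 array of each group, were fitted as a block of slide position. Signals near the floor limit every statement on cesarean arrays 1 and 3.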
